A study of Drosophila melanogaster with 8 samples.

Results

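The cup genes of Drosophila melanogaster were followed here in RNA recovered from testis ribosomes that carry either of 2 paralogous large-subunit proteins, eRpL22-like and eRpL22. Members were matched by name to a list of 10 cup genes, which was chosen with earlier results of these data known. Of the 10, 9 were among the 12051 genes of the deposited table: w-cup, m-cup, h-cup, t-cup, c-cup, wa-cup, r-cup, d-cup and p-cup. The tenth, y-cup, was not analysed here. Lysates of testis from wild-type flies, which the labels place at day 2 to day 7, were precipitated with antibodies specific to one paralogue, and RNA was taken from the precipitates. One label field adds that the pulldown started from a ribosome profile of testis extract. The eRpL22-like pulldown is represented by 4 libraries and the eRpL22 pulldown by 3 of its 4 labelled replicates, and eRpL22 replicate 4 was not analysed here. All libraries share genotype and tissue, and no input RNA or mock precipitate is among the samples, so RNA held by ribosomes cannot be told apart from background common to both pulldowns. No label says that replicates came from separate batches of flies, and p-values therefore speak only of how these libraries differ among themselves, which could be technical variation.

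In the fly male germ line, most transcription ends as spermatocytes enter meiosis, and spermatids build the sperm largely from messenger RNAs that were stored earlier. The cup genes and the related comet genes are an exception, a small set transcribed after meiosis in elongating spermatids. Their RNAs gather at the distal ends of the spermatid bundle, in a pattern shaped like a cup or a comet, which gave the genes their names. Which ribosomes carry such late transcripts is the question that the paralogue pulldowns address for this set. The deposited files give no molecular function for the 9 cup genes, and none is assigned here.

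Values are the authors' normalized reads, that is, reads of a gene divided by a factor of its library. Whole reads behind these values totalled 22448043 to 25159184 in the eRpL22-like libraries and 15971685 to 26346787 in the eRpL22 libraries. The lowest total was that of eRpL22 replicate 1. This library also stood apart in the mitochondrial ribosomal RNA mt:lrRNA, which took 6.32% to 11.3% of the reads of the eRpL22-like libraries and 16.5%, 9.27% and 7.96% of those of eRpL22 replicates 1, 2 and 3. Several results are therefore also given without it. Germline markers took 1.25% to 1.40% of the reads with eRpL22-like and 1.35% to 1.47% with eRpL22. This share was weighted toward abundant genes: the highest mean among the 12 markers was 122956 normalized reads, and the median was 1415. The 2 germline markers with most reads were sperm tail genes. Accessory gland and ejaculatory tract markers took 0.207% to 0.335% with eRpL22-like and 0.220% to 0.319% with eRpL22. Muscle markers took 0.0509% to 0.239% with eRpL22-like and 0.0640% to 0.0806% with eRpL22, and markers of hub and cyst cells, fat body, neurons and hemocytes stayed at or under 0.0258% in every library. In such bulk RNA, fewer spermatids and less RNA per spermatid cannot be told apart. Transcripts of the precipitated proteins ranged from 1084 to 6312 normalized reads with eRpL22-like for RpL22, which had 16441, 3861 and 4228 in eRpL22 replicates 1, 2 and 3. For RpL22-like they ranged from 305 to 949 with eRpL22-like and from 911 to 1782 with eRpL22.

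All 9 cup transcripts had reads in all 7 libraries, p-cup as few as 3 in eRpL22-like replicate 4, and none was called different between the pulldowns. They fell into 3 ranges of reads. w-cup alone held 55.3% to 62.9% of the cup reads of the eRpL22-like libraries and 59.2% to 64.3% of those of the eRpL22 libraries. m-cup, h-cup, t-cup and c-cup had means over the 7 libraries of 3326 to 4907 normalized reads, and wa-cup, r-cup, d-cup and p-cup of 371 to 1219. By rank among the 12051 genes, w-cup stood at 69, the next 4 cup genes at 795 to 1284, and the last 4 at 3012 to 5842. These ranks order reads, not reads per length, because the annotation behind the table is not given in the sources used here.

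**Figure D1:**
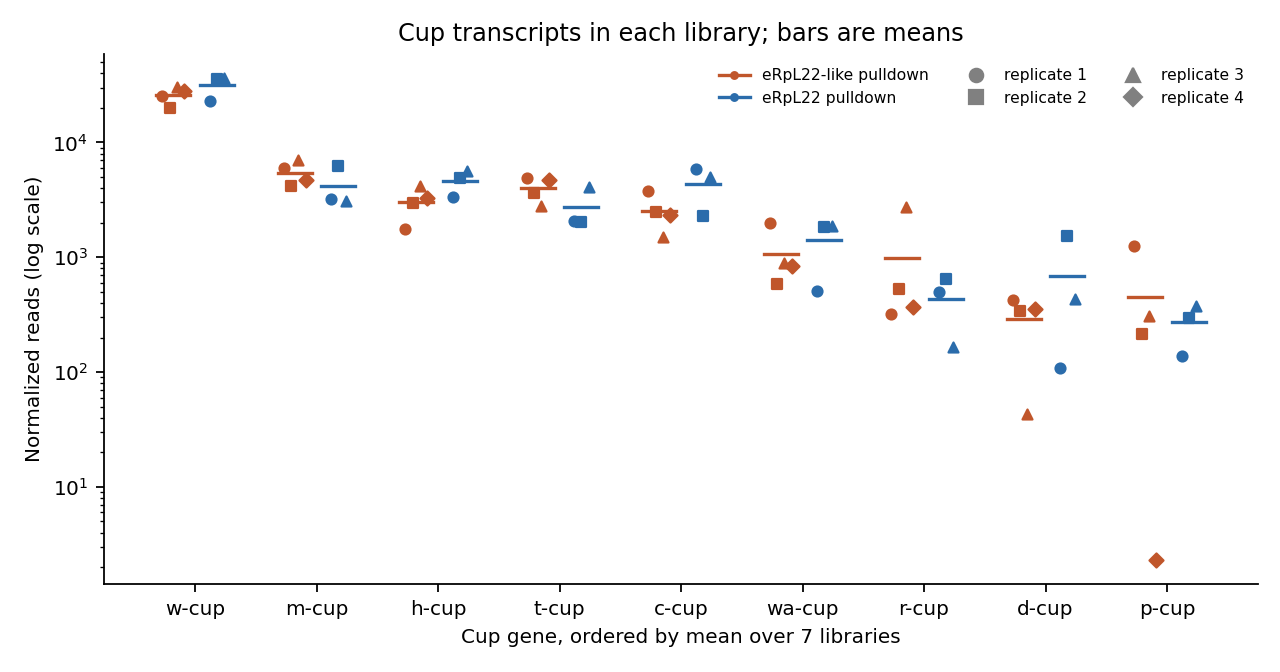
Normalized reads of each cup gene (log scale) in every library, with genes ordered by their mean, eRpL22-like libraries in orange and left of the eRpL22 libraries in blue, marker shapes for replicate numbers and bars for means. The libraries of both pulldowns overlap for every gene, and the points spread out toward the right, down to 2.30 normalized reads for p-cup in eRpL22-like replicate 4.

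w-cup (FBgn0032269) had 25347, 19871, 30202 and 27893 normalized reads in eRpL22-like replicates 1 to 4, against 22882, 35801 and 36261 in eRpL22 replicates 1 to 3. The 2 highest libraries were both from the eRpL22 pulldown, but eRpL22 replicate 1 lay below 3 of the 4 eRpL22-like libraries, so the groups overlapped. The means were 25828 ± 4439 (SD, n = 4) with eRpL22-like and 31648 ± 7595 (SD, n = 3) with eRpL22. On the log2(normalized reads + 1) scale of limma, the change, taken throughout as eRpL22-like over eRpL22, was -0.28 (SE 0.20, unadjusted p = 0.170, Benjamini-Hochberg adjusted p = 0.945 over 11174 genes). Its 95% interval in this fit, 0.623-fold to 1.09-fold, was the narrowest of the 9 and the only one wholly within 2-fold either way. That width depends on limma's trend over all genes. Limma without the trend gave the same log2 fold change with an unadjusted p of 0.625, so the interval would be wider there. Within each library, w-cup ranked 61 to 96 with eRpL22-like and 54 to 105 with eRpL22. Without eRpL22 replicate 1 the log2 fold change was -0.50 and the libraries no longer overlapped (limma unadjusted p = 0.0179, adjusted p = 0.953). Under that removal 12.5% of all genes tested were free of overlap.

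m-cup and t-cup had higher means in the eRpL22-like pulldown. m-cup (FBgn0038488) had 5945, 4151, 7012 and 4664 normalized reads in the eRpL22-like libraries, against 3196, 6289.6 and 3092 in the eRpL22 libraries. Of the eRpL22 libraries, replicate 2 reached the upper part of the eRpL22-like range and the others lay below it. t-cup (FBgn0051858) had 4951, 3663, 2798 and 4675 normalized reads with eRpL22-like, against 2060.2, 2036 and 4121 with eRpL22. Here it was eRpL22 replicate 3 that lay among the eRpL22-like values, and the other eRpL22 libraries lay below all of them. The ratio of means was 1.298 for m-cup and 1.47 for t-cup. Limma put the log2 fold change of m-cup at 0.43 (SE 0.41, unadjusted p = 0.300) and that of t-cup at 0.60 (SE 0.47, unadjusted p = 0.210), both with an adjusted p of 0.945. The intervals reached from 0.759-fold to 2.38-fold for m-cup and from 0.782-fold to 2.94-fold for t-cup, so a doubling with eRpL22-like was inside both.

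For h-cup and c-cup the mean was lower with eRpL22-like. h-cup (FBgn0038334) had 1752, 2943, 4199 and 3260.1 normalized reads in the eRpL22-like libraries, against 3367, 4935 and 5593 in the eRpL22 libraries. Only eRpL22-like replicate 3 exceeded the lowest eRpL22 library, replicate 1. c-cup (FBgn0031367) had 3802, 2499, 1495 and 2317 with eRpL22-like, against 5907, 2269 and 4989 with eRpL22. eRpL22 replicate 2 lay among the eRpL22-like libraries and the other eRpL22 libraries lay above them all. Means with eRpL22-like were 1.52-fold lower for h-cup and 1.74-fold lower for c-cup. Limma put the log2 fold change of h-cup at -0.64 (SE 0.46, unadjusted p = 0.169) and that of c-cup at -0.76 (SE 0.50, unadjusted p = 0.139), both with an adjusted p of 0.945. c-cup thus had the smallest unadjusted p of the 9 genes. Without eRpL22 replicate 2 its log2 fold change was -1.18 and its libraries did not overlap (limma unadjusted p = 0.0405, adjusted p = 0.945). Under that removal 12.0% of all genes tested were free of overlap. Each library was left out in turn for all 9 genes. Only this limma unadjusted p and that of w-cup without eRpL22 replicate 1 fell under 0.05.

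The 4 cup genes with fewer reads varied more between libraries of one pulldown. wa-cup (FBgn0037502) had 1995, 585, 892 and 837 normalized reads with eRpL22-like, against 511, 1837 and 1875 with eRpL22. High and low libraries occurred in both pulldowns, with eRpL22-like replicate 1 highest and eRpL22 replicate 1 lowest. r-cup (FBgn0031142) had 319, 525, 2748 and 369.6 with eRpL22-like, against 495, 641 and 167 with eRpL22. The value of eRpL22-like replicate 3 was 4.28 times the next highest of all 7 libraries, and the other 3 eRpL22-like libraries lay inside the eRpL22 range. Leaving that library out moved the limma log2 fold change of r-cup to 0.07, against 0.77 with it.

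d-cup (FBgn0038089) had 426, 339.8, 43.0 and 357 normalized reads with eRpL22-like, against 108, 1534 and 431 with eRpL22. Its highest library, eRpL22 replicate 2, was 3.55 times the next, and without it the log2 fold change of -0.93 became 0.01. p-cup (FBgn0030840) had 1261, 214, 309 and 2.30 normalized reads with eRpL22-like, against 138, 295 and 379 with eRpL22. The highest and the lowest of the 7 p-cup values were both in the eRpL22-like pulldown. The value of 2.30 in eRpL22-like replicate 4 stood for 3 reads among 24635199 of that library, no more than the level that a count of 0 would still allow.

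The direction for p-cup depended on the scale. Its mean was 447 ± 558 normalized reads with eRpL22-like (SD, n = 4) and 270.5 ± 123 with eRpL22 (SD, n = 3), a ratio of 1.65, whereas limma on log2 values gave -0.95 (SE 1.87). edgeR and DESeq2 on the whole reads gave 0.71 and 0.72, and limma without eRpL22-like replicate 4 gave 0.81. For wa-cup, r-cup and d-cup, limma gave -0.32, 0.77 and -0.93, with SEs of 0.79, 1.10 and 1.43. The wa-cup value was -0.94 without eRpL22 replicate 1 and -0.0039 without eRpL22 replicate 3. The limma unadjusted p-values of these 4 genes ran from 0.488 to 0.686, and their 95% intervals were wide: that of r-cup went from 0.363-fold to 8.06-fold. That of wa-cup went from 0.264-fold to 2.43-fold. A 2-fold change either way lay inside the interval of each of these 4 genes.

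As a group, 0 of the 9 cup genes passed an adjusted p of 0.05 in limma, where 0% of the 11174 genes tested passed. At an unadjusted p under 0.05 there were also 0 of 9, against 4.11% of all genes. edgeR's quasi-likelihood test on the whole reads called 0 of the 9 cup genes and 0% of 9516 genes, with 3.96% of those genes at an unadjusted p under 0.05. DESeq2 on the whole reads called 0 of the 9 and 1.98% of 8688 genes, and 0 of the 9 had an unadjusted p under 0.05 there, against 9.78% of 9837 genes. In the authors' deposited table, whose adjusted p was under 0.05 for 0.174% of genes, the adjusted p of the cup genes lay between 0.875 and 0.920. Log2 fold changes in the authors' deposited table ran from -1.24 for d-cup to 1.19 for r-cup. For the 9 cup genes these were the fold changes of DESeq2 on the whole reads to within rounding. The authors' values are therefore not a separate result, although the share of all genes called differed.

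Both directions occurred among the cup genes. In limma 6 had a log2 fold change below 0 and 3 had a log2 fold change above 0, m-cup, t-cup and r-cup, where 48.8% of all genes tested had one. By mean normalized reads 4 were higher with eRpL22-like, p-cup being the fourth, where 51.4% of all genes were. No list test was made. The median log2 fold change of the 9 was -0.32, beside -0.03 over all genes tested. Library values of 0 of the 9 were free of overlap between pulldowns, where 5.14% of all genes were. With 1 library left out, at most 3 cup genes were free of overlap: without eRpL22 replicate 1 these were w-cup, h-cup and d-cup, all lower with eRpL22-like, where 12.5% of all genes were free of overlap. Without eRpL22 replicate 2, m-cup was higher and c-cup lower with eRpL22-like (background 12.0%). Without eRpL22 replicate 3, t-cup was higher (background 11.7%), and without eRpL22-like replicate 3, h-cup was lower (background 9.35%).

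**Figure D2:**
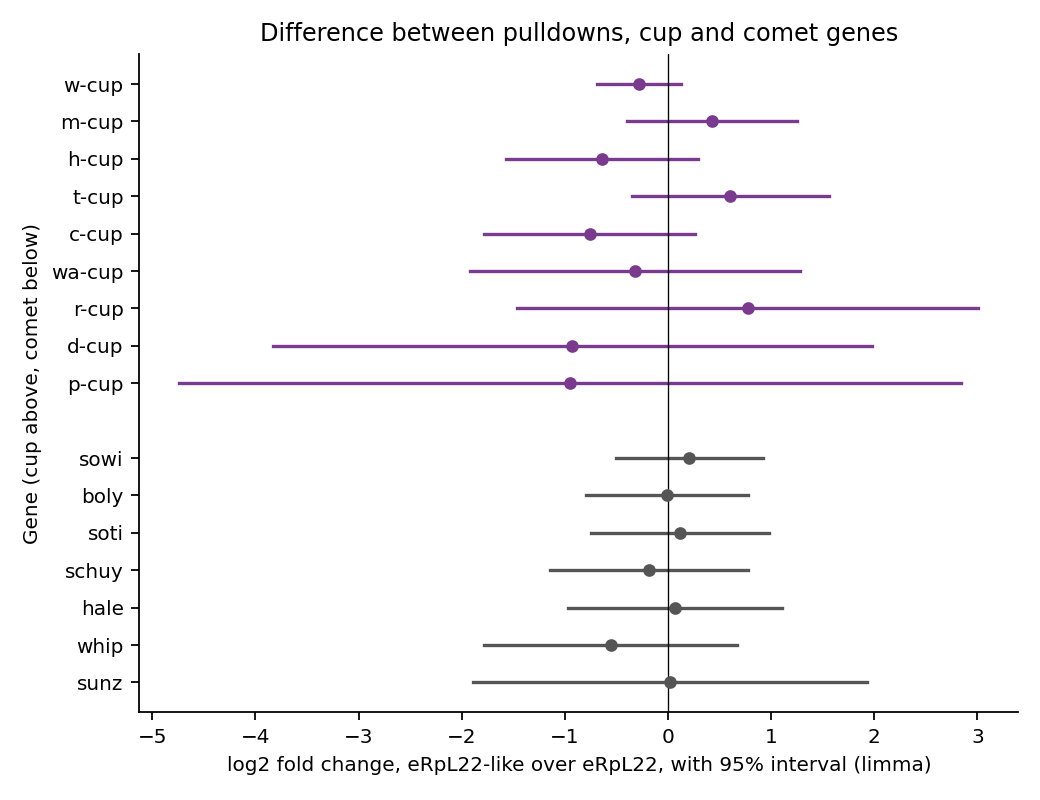
Limma log2 fold change (x axis; above 0 is higher with eRpL22-like than with eRpL22), with 95% intervals as lines, for the 9 cup genes above and the 7 comet genes below, each set ordered from high to low mean reads. Every interval crosses 0, and intervals are wider for genes with fewer reads, from an SE of 0.20 for w-cup to 1.87 for p-cup. Because limma was fitted with a trend, these widths rest in large part on the spread of all genes with similar reads.

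Summed over the 9 genes, cup transcripts took 0.200%, 0.191%, 0.237% and 0.235% of the reads of eRpL22-like replicates 1 to 4, against 0.162%, 0.276% and 0.272% of eRpL22 replicates 1 to 3. The mean share was 0.216% ± 0.0238 (SD, n = 4) with eRpL22-like and 0.237% ± 0.0649 (SD, n = 3) with eRpL22. The eRpL22 libraries held both the lowest share and the 2 highest, so the eRpL22-like values lay inside the eRpL22 range. Without eRpL22 replicate 1 the eRpL22 mean was 0.274%, and both remaining eRpL22 libraries were above every eRpL22-like library. Of single genes tested, 12.5% were free of overlap under the same removal. No test is given for this sum, most of which is w-cup.

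**Figure D3:**
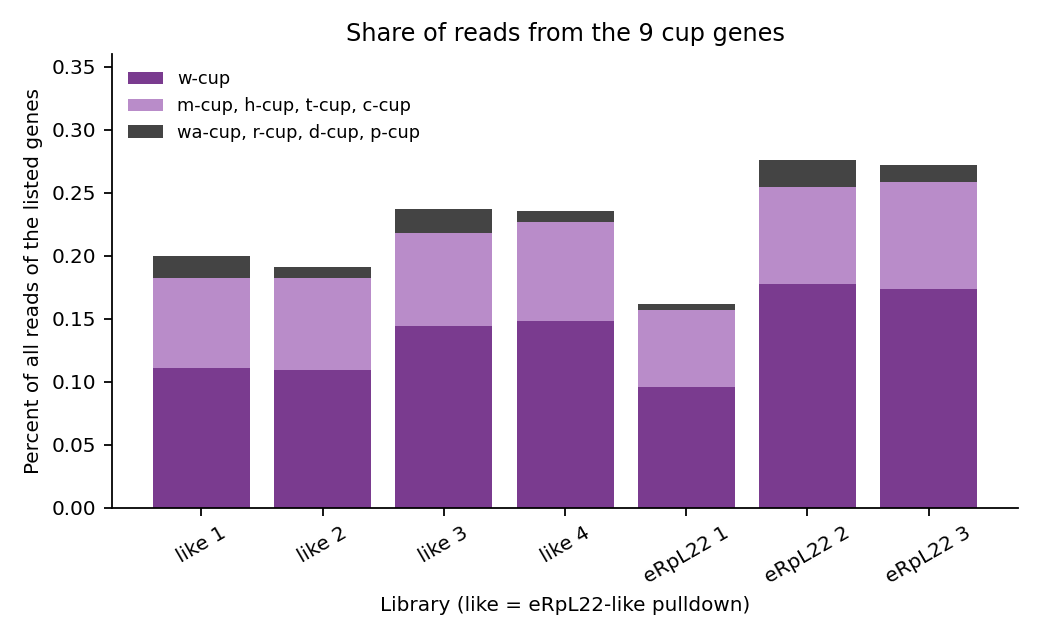
Percent of the reads of all listed genes that came from the 9 cup genes in each library, eRpL22-like libraries on the left and eRpL22 libraries on the right, stacked by w-cup, the 4 genes of middle rank and the 4 genes with fewest reads. w-cup is the largest block of every bar, and eRpL22 replicate 1 has the lowest bar at 0.162%.

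Spread between replicates followed the number of reads. The within-pulldown SD of log2(normalized reads + 1), pooled over both pulldowns, was 0.31 for w-cup, 0.45 to 0.63 for m-cup, h-cup, t-cup and c-cup, and 0.89, 1.28, 1.70 and 2.90 for wa-cup, r-cup, d-cup and p-cup. The median over all genes tested was 2.29. Set against genes whose mean lay within 2-fold of their own, 6 of the 9 cup genes had a smaller SD than the median of such genes. The share of such genes with a smaller SD was lowest for t-cup, at 28.5% of 1792 genes, and highest for w-cup, at 62.9% of 140 genes. The coefficient of variation of w-cup was 17.2% with eRpL22-like and 24.0% with eRpL22, whereas that of r-cup was 119% with eRpL22-like and 56.0% with eRpL22. The extremes were shared among libraries: eRpL22-like replicate 1 was highest for 3 cup genes, eRpL22-like replicate 3 and eRpL22 replicate 3 for 2 each, and each of the 7 libraries was lowest for 1 or 2.

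**Figure D4:**
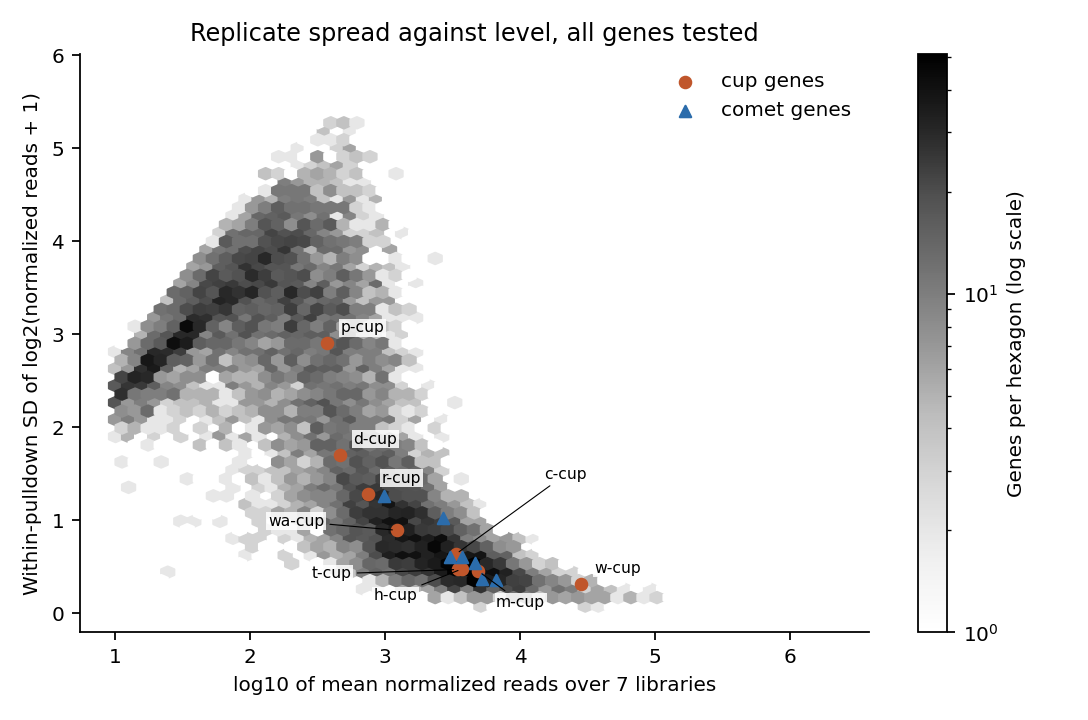
Within-pulldown SD of log2(normalized reads + 1) against log10 mean normalized reads for the 11174 genes tested (grey hexagons, shaded by number of genes on a log scale), with cup genes as labelled orange circles and comet genes as blue triangles. The cup genes lie inside the band of all genes, w-cup toward its right end with an SD of 0.31 and p-cup high in it with 2.90.

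Among the comet genes, the other post-meiotic set, none was called. Of 9 comet genes listed, 7 were tested and 2, swif and cola, were not analysed here. Their means over the 7 libraries ran from 981 to 6585 normalized reads. No comet gene had as many reads as w-cup, and in no library did the comet sum exceed the cup sum. The comet genes took 0.106% to 0.176% of the reads with eRpL22-like and 0.106% to 0.131% with eRpL22. That order of the sums rested on w-cup: without w-cup, the comet sum was the larger in every library. Limma called 0 of 7, with 0 at an unadjusted p under 0.05, 4 log2 fold changes above 0 and a median of 0.02. Over all genes tested, 0% were called, 4.11% had an unadjusted p under 0.05, 48.8% had a log2 fold change above 0 and the median was -0.03. The 3 with most reads were sowi, boly and soti, the last encoding a regulator of caspase activity in spermatids. sowi had 6977 ± 1635 normalized reads with eRpL22-like (SD, n = 4) and 6063 ± 1631 with eRpL22 (SD, n = 3). boly had 5286 ± 1865 with eRpL22-like (SD, n = 4) and 5139 ± 629.9 with eRpL22 (SD, n = 3). soti had 4830.4 ± 1984 with eRpL22-like (SD, n = 4) and 4351 ± 1441 with eRpL22 (SD, n = 3). Limma gave 0.20 for sowi (unadjusted p = 0.563), -0.01 for boly (unadjusted p = 0.979) and 0.11 for soti (unadjusted p = 0.792).

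Of other gene sets of sperm development, 0 of 13 sperm tail genes, 0 of 7 sperm chromatin genes and 0 of 14 regulators of the spermatocyte transcription program passed the limma threshold. Their median log2 fold changes were -0.12, 0.02 and 0.07, beside -0.03 over all genes tested, and 3, 0 and 0 of them had an unadjusted p under 0.05, where 4.11% of all genes tested did. The median within-pulldown SD was 0.20 for the sperm tail genes, 0.39 for the sperm chromatin genes and 2.25 for the regulators, beside 0.63 for the cup genes. The median reads of these sets differed as well, at 39783, 10268 and 527 normalized reads, beside 3326 for the cup genes.

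The table also lists f-cup and s-cup, which share the name but were not on the list of members. f-cup (FBgn0028487) had 13.7, 985, 0.934 and 185 normalized reads with eRpL22-like, against 1218, 296 and 485 with eRpL22. s-cup (FBgn0050044) had 59.2, 0, 3.74 and 150.0 with eRpL22-like, against 810.3, 0 and 608 with eRpL22. For both genes, libraries of one pulldown differed from near absence to well over the floor of counting. A count of 0 allowed up to 2.24 normalized reads in eRpL22-like replicate 2 and up to 3.06 in eRpL22 replicate 2, for counting error only. Limma gave -3.55 for f-cup (SE 2.03, unadjusted p = 0.0890) and -2.46 for s-cup (SE 2.94, unadjusted p = 0.409). The f-cup difference was smaller on other scales: its mean was 2.25-fold lower with eRpL22-like, and the authors' deposited table gave a log2 fold change of -1.17 (p = 0.454, from DESeq2).

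w-cup, h-cup and t-cup each lie inside the span of a larger gene in the RefSeq annotation of the Release 6 plus ISO1 MT assembly. The larger genes are Trim9 for w-cup, Rbp for h-cup and bun for t-cup, and whether the authors' counting used strand is not given in the sources used here. Rbp had 0 to 1.49 normalized reads in the eRpL22-like libraries and 0 to 19.4 in the eRpL22 libraries, so h-cup had at least 1752 normalized reads where its host had almost none. Trim9 had at most 432 normalized reads with eRpL22-like and 490.4 with eRpL22, far below w-cup. bun was comparable to t-cup, at 2242 ± 345.5 normalized reads with eRpL22-like (SD, n = 4) and 2935 ± 918 with eRpL22 (SD, n = 3), a limma log2 fold change of -0.35 (unadjusted p = 0.502) beside the 0.60 of t-cup. In the same annotation d-cup overlaps an antisense RNA gene in part. Only the spans of genes were compared, not their exons or strands. Whether the counting could tell apart the reads of such partners is therefore not known here. The values of t-cup and d-cup are uncertain to that extent. c-cup contains the microRNA gene mir-2280, whereas m-cup, p-cup, r-cup and wa-cup overlap no other annotated gene there. No 2 cup genes are neighbours. Of the comet genes, schuy and hale lie next to each other, as do boly and swif, and whip and cola.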

How the data were processed

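RNA from eRpL22-like or eRpL22 immunoprecipitates of testis was extracted with Trizol, and Kapa Hyper prep libraries were read as 50-base single reads, per the labels' protocols. Trim Galore, cutadapt, STAR and DESeq2 are the tools listed, per the submitters' processing notes. For genome build, annotation, read counter and use of strand the answer is not given in the sources used here. Per the file headers, the deposited table holds a normalized expression signal for 7 libraries, beside the authors' log2 fold change, a Wald score (not used here), and the p-value before and after adjustment. 0 other columns of per-sample values were present. Deposited values were whole multiples of 1 step per library (100% at a relative tolerance of 1e-06), and 1 read equalled 0.747 to 1.50 normalized reads. Floors reflect counting error alone, because PCR copies cannot be told from separate molecules.

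The main test was limma (version 3.58.1, R 4.3.3) with a trend on log2(normalized reads + 1), two-sided, over the 11174 genes that averaged 10 or more normalized reads, a filter that all 9 cup genes passed. It was adjusted by Benjamini-Hochberg with a threshold of 0.05. Because such fold changes add a pseudocount, they shrink changes of low genes, p-cup from -1.01 at a pseudocount of 0.5 to -0.68 at 5. They are still not always smaller than on other scales, as f-cup shows. Recovered reads also went into edgeR 4.0.16 and DESeq2 1.42.0. Fits were tested on simulated data with a low spread and large changes. That test does not show how well the fits find changes in these libraries. Python 3.11.15 with pandas 2.3.3 made the summaries. All 9 cup genes were matched by symbol in RefSeq, used for neighbouring genes only. Every cup gene, the 3 comet genes with most reads, RpL22, RpL22-like and other genes named -cup were named by rule. Trim9, Rbp, bun, schuy, hale, whip, mir-2280 and mt:lrRNA were added after values were seen. The members and lists were chosen with earlier results of these data known.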

Additional observations from a re-analysis of the deposited data

Results flagged for a closer look

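In the eRpL22-like pulldown, with 4 libraries, 3 of 24 groups of values held a library far from the others, measured as its gap to the nearest divided by the whole range. Chance sets apart about 1 in 20 such groups if values are normally distributed, which was not tested for these reads. The 3 groups are therefore not read as an excess. r-cup had 2748 normalized reads in eRpL22-like replicate 3, with the other eRpL22-like libraries at 319 to 525. Trim9, which spans w-cup, had 432 in eRpL22-like replicate 1 and at most 2.24 in the other eRpL22-like libraries, while w-cup had 25347 in eRpL22-like replicate 1. Rbp, which spans h-cup, had 1.49 in eRpL22-like replicate 2 and 0 in the others, a value of 2 reads that lies under the limit a count of 0 allows.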

How the results depend on the processing

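Under 17 alternatives (pseudocounts of 0.5 and 5, no filter on low values, library totals only, quantile normalization, TMM factors, edgeR, DESeq2, limma without the trend, a replicate block, and each of the 7 libraries left out) no cup gene was called, and the smallest adjusted p of any of them was 0.643. Over all genes, limma called 0, quantile normalization 1 (CG9920), and DESeq2 172. Of 153 values for single cup genes, 148 kept their direction. This count includes values that could not change: dropping the filter or the trend leaves the fold changes of the main fit as they are. The replicate block also gave the same fold changes as leaving out eRpL22-like replicate 4. The count is therefore not a measure of robustness. p-cup turned to 0.71 with edgeR, 0.72 with DESeq2 and 0.81 with the replicate block. With 1 library left out, p-cup ran from -2.05 to 0.81 and d-cup from -1.90 to 0.014, its highest value being the one without eRpL22 replicate 2. The number of cup genes free of overlap ran from 0 to 3 with 1 library left out. The median log2 fold change of the cup genes stayed negative, from -0.50 to -0.02 with 1 library left out and from -0.37 to -0.22 otherwise.

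Whether the replicate numbers pair the libraries cannot be told from these values. The deviations of same-numbered libraries correlated at 0.0071, 0.020 and 0.0099, against -0.023 to 0.021 for differently numbered ones. The median within-pulldown SD was 2.29 over all genes tested, so a weak pairing could go unseen. Under the replicate block 0 genes passed in limma, cup genes included, and the unadjusted p was below 0.05 for 314 genes, against 459 without the block. In that fit eRpL22-like replicate 4 has no partner and adds nothing to the difference. Of the eRpL22 libraries 1 of 3, and of eRpL22-like replicates 1 to 3, 2 of 3, correlated best with their own number. The 3 p-cup reads of eRpL22-like replicate 4 came at a depth of 24635199 reads, above that of eRpL22-like replicates 2 and 3, which held 287 and 331.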
